A study of Homo sapiens with 4 samples.

Results

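The regions described here are the ATAC-seq peaks around MYCN on the short arm of chromosome 2 in SK-N-BE(2)C cells. They were chosen by position, as all peaks lying wholly in chr2:15900000-16450000 (GRCh38), a window drawn where an earlier reading of the same 2 lists showed very high fragment coverage. In the control list 157 of 47610 peaks met the rule and in the sgSNHG1 list 205 of 42682, and 144 of the 31663 overlapping pairs of the series. Coverage and local background in the window therefore chose the members and are given as a description.

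SK-N-BE(2)C is an established human neuroblastoma cell line with amplified MYCN. Cells had been co-transfected with constructs for Cas9 and dual guide RNAs, selected with puromycin, and sorted into single-cell clones. The control group (genotype wildtype) received a non-targeting control gRNA and the sgSNHG1 group (genotype SNHG1 knockout) received SNHG1 gRNA, which targets the lncRNA gene SNHG1. Knockout is the word of the label, and the study states that SNHG1 was repressed but not completely knocked out. In each group 2 replicates were sequenced and combined by the authors into 1 peak list, so the 4 samples gave 2 lists and no spread between replicates can be shown. The study describes a single control clone, so differences between clones and differences between the guides cannot be told apart.

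In ATAC-seq the Tn5 transposase inserts adapters into accessible DNA, so open promoters and enhancers collect fragments. MYCN encodes a transcription factor of the MYC family, and high-level amplification of its locus marks aggressive neuroblastoma. The extra copies carry neighbouring DNA with them, which can include the antisense gene MYCNOS, the RNA helicase gene DDX1 and distal enhancers of MYCN. Each extra copy adds fragments to open and closed DNA alike, so both the peaks and the background around them rise with copy number.

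The reference sequences below show the MYCN promoter and the summits the comparison turns on, all on the plus strand of GRCh38. The first is the 250 bases before the annotated MYCN start, from the RefSeq promoter table. The others are the 201 bases centred on the control summit of the 4 highest peaks with raised background outside the promoter, of the pair with the largest fall, and of the only strong pair with a higher fold enrichment in sgSNHG1, which was lower there by scaled pileup, the other measure used below. Capitals mark the letters CANNTG, the general E-box read by MYC family and other basic helix-loop-helix factors, and GATAA on either strand, the core letters read by GATA factors.
MYCN promoter, chr2:15940300-15940549: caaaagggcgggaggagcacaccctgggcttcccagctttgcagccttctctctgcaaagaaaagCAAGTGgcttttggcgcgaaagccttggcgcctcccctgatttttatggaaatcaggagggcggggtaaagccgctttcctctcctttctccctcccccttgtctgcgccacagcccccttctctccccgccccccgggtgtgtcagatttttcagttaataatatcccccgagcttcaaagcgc
Peak 41.9 kb after the MYCN start, chr2:15982336-15982536: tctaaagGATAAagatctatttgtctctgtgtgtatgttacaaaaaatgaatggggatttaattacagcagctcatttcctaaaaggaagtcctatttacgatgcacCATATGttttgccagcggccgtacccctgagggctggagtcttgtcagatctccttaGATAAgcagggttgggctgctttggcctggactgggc
Peak at 44.1 kb, chr2:15984509-15984709: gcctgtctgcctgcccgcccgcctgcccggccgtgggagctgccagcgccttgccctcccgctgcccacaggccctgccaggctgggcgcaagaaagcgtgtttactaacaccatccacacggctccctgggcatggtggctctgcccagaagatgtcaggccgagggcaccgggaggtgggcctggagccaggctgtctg
Peak at 153.7 kb, the highest of the control list, chr2:16094176-16094376: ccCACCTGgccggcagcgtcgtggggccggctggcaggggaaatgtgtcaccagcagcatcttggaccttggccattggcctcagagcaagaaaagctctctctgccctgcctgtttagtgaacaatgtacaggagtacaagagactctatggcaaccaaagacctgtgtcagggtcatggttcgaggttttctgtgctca
Peak at 245.6 kb, the largest fall, chr2:16186068-16186268: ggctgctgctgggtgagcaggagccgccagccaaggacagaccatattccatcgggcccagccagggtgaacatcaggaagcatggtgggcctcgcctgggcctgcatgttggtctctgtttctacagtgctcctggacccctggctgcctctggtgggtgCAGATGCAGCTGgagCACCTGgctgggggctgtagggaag
Peak at 261.4 kb, chr2:16201824-16202024: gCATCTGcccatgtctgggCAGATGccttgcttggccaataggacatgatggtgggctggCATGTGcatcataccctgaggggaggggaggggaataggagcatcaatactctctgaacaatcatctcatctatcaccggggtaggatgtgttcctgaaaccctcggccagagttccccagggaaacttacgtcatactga
Peak at 452.3 kb, chr2:16392756-16392956: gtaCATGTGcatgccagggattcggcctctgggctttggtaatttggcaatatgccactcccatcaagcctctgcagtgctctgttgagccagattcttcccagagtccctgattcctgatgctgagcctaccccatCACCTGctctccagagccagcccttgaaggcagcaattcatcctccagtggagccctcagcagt

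The MYCN promoter held 1 E-box of the general form (CAAGTG) and no GATAA. The peak with the largest fall held 3 E-boxes within 100 bp of its summit, the most of the 7 sequences together with the peak at 261.4 kb, and the peak at 44.1 kb held none. The palindrome CACGTG, the preferred E-box of MYC proteins, was in none of the 7.

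The values used below follow the peak caller. Fold enrichment is the deposited value at each peak's summit, the number of fragments over the summit plus 1 divided by the local background plus 1. The pileup, which is the number of fragments over the summit, was found together with the local background as the values that give both the deposited fold enrichment and p-value of a peak. The lowest local background of a list, its genome-wide level, was 2.20 fragments in control and 1.72 in sgSNHG1. Pileups divided by this level are called scaled pileups, and the counting error of a ratio is the Poisson error of the 2 pileups on the log2 scale. These errors cover counting only, and fragments are not replicates.

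**Figure D1:**
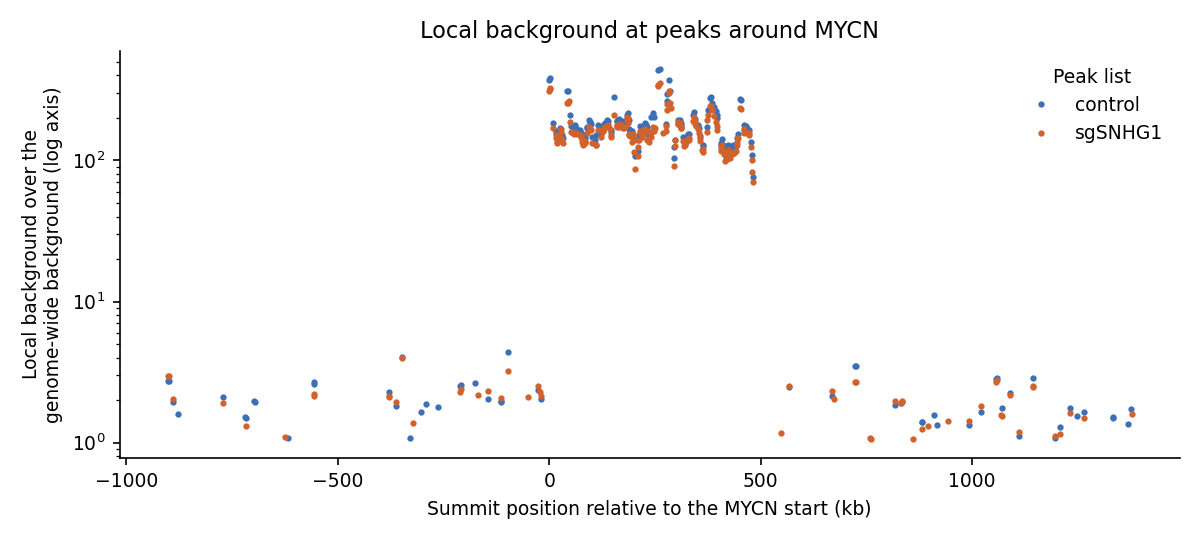
Local background at each peak divided by the genome-wide level of its list (vertical log axis), against the distance of the summit from the MYCN start in kb (horizontal axis), for the control list (blue) and the sgSNHG1 list (orange), in the window and 0.9 Mb on either side. The raised stretch begins at the MYCN promoter in both lists and measures 482 kb, between flanks where no value exceeds 4.38.

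Of the 157 control peaks, 155 had a local background at least 10 times the genome-wide level, and of the 205 sgSNHG1 peaks 202 had. Both lists placed the first of these peaks on the MYCN promoter, starting at chr2:15939500 in control and at chr2:15939491 in sgSNHG1. The last ended at chr2:16421408 in control and at chr2:16421415 in sgSNHG1, so the raised stretch measured 482 kb in each. The median local background of the raised peaks was 169 times the genome-wide level in control (lowest 75.7, highest 442) and 156 times in sgSNHG1 (lowest 70.6, highest 353). In the 0.9 Mb on either side, the 54 control peaks had a median of 1.89 (1.08 to 4.38) and the 50 sgSNHG1 peaks a median of 2.012 (1.06 to 3.95). The plot of local background by distance shows the step at both ends.

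The level was not even along the stretch. Between 250 and 300 kb after the MYCN start the median was 280 times in control and 235 times in sgSNHG1, whereas between 400 and 450 kb it was 125 and 115 times. Strong peaks enter their own local background, so these levels are not copy numbers. Within the stretch, peaks covered 17.9% of the bases in control and 19.1% in sgSNHG1, against 1.12% and 0.774% in the flanks. Elsewhere in the genome 50 control peaks and 42 sgSNHG1 peaks passed 10 times the genome-wide level. The highest of them, at 76.5 and 72.9 times, were close to the lowest of the stretch.

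The window was longer than the raised stretch, and the peaks around its edge on the DDX1 side had no raised background. On the DDX1 side, the last control peak before the window (chr2:15842745-15843486) had a fold enrichment of 9.84 and a background of 4.38 times the genome-wide level, and the first one inside (chr2:15914631-15915054) had 6.57 and 2.38 times. The last sgSNHG1 peak before the window (chr2:15891276-15891400) had a fold enrichment of 5.43, and the first inside (chr2:15914616-15915194) had 7.28. After the window, the next control peak began at chr2:16508079 with a fold enrichment of 7.30, and the next sgSNHG1 peak began at chr2:16487803 with 4.99. The last raised peak was enriched 1.67-fold in control and 1.66-fold in sgSNHG1.

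Peaks inside the stretch had low fold enrichment over very deep coverage. The median fold enrichment of the window was 1.45 in control (quartiles 1.35 and 1.65) and 1.498 in sgSNHG1 (quartiles 1.38 and 1.73), against 5.54 and 5.56 outside it. The median pileup was 522 fragments in control and 398 in sgSNHG1, against 24 and 20 outside. A fold enrichment of 4 or more was reached by 10 of the 157 control peaks and by 82.6% of the whole control list, and by 6 of the 205 sgSNHG1 peaks and 86.6% of that whole list. The local background divides the pileup, so a fold enrichment inside the stretch is not on the same footing as one outside it.

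**Figure D2:**
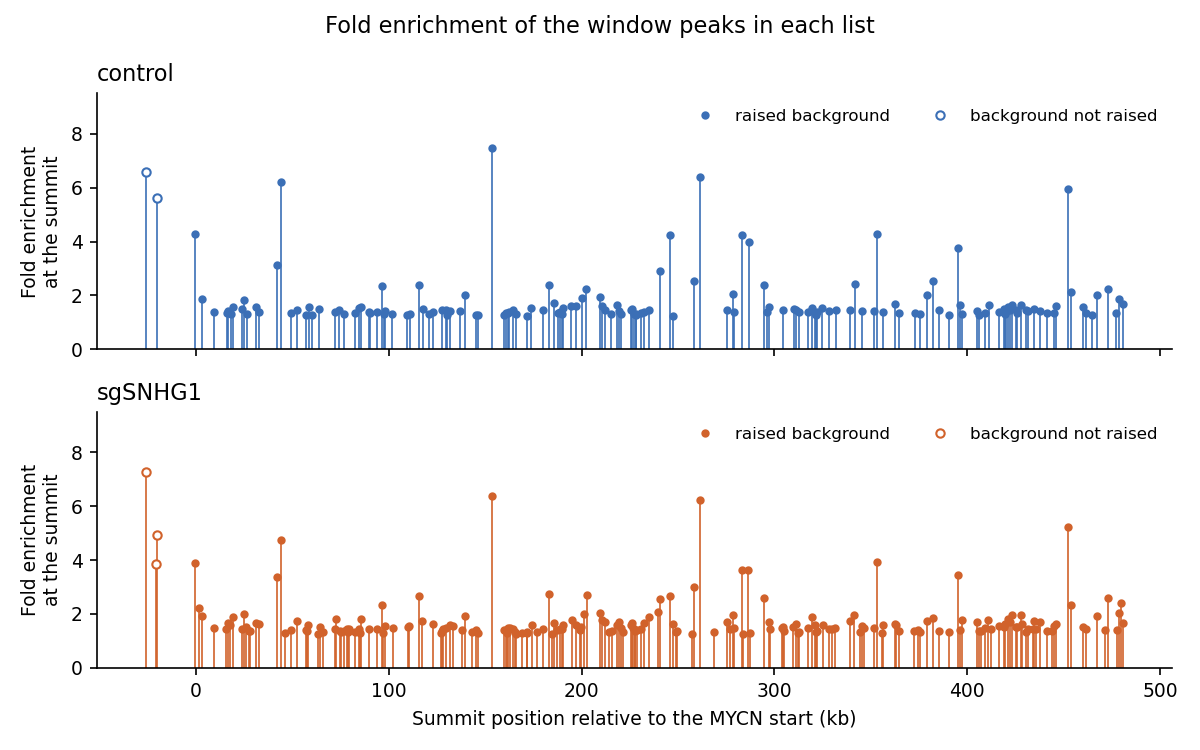
Fold enrichment at the summit of every window peak (vertical axis, no unit) against the distance of the summit from the MYCN start in kb (horizontal axis), control list above and sgSNHG1 list below. Filled points are peaks with raised background and open points are the 2 control and 3 sgSNHG1 peaks upstream of MYCN without it. A few peaks between 3.76 and 7.47 in control stand over many below 2. Most of these places stand out in sgSNHG1 too, but the peak at 245.6 kb reaches only 2.65 there.

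MYCN itself was covered by the widest control peak of the window. The control peak at chr2:15939500-15943010, 3511 bp wide, had its summit 187 bp before the MYCN start. It ran over the promoter and over exons of MYCN and MYCNOS, and since ATAC-seq reads have no strand the sense and antisense genes share the peak. In the sgSNHG1 list the same interval was called as 2 peaks, one of 1801 bp with its summit 172 bp before the start and one of 1600 bp with its summit 1649 bp after it. The fold enrichment at the promoter summit was 4.30 in control and 3.89 in sgSNHG1. The second sgSNHG1 part, whose summit lay close to the MYCNOS start, had a fold enrichment of 2.21, with 1231 fragments over its summit. The control list gives no separate value there. A further peak 3.0 kb after the start, over a MYCN exon, had 1.88 in control and 1.94 in sgSNHG1 (log2 ratio 0.04, counting error 0.06). The promoter fold enrichments gave a log2 ratio of -0.14 (counting error 0.04). By scaled pileup both peaks were lower in sgSNHG1, with log2 ratios of -0.40 at the promoter and -0.21 at the exonic peak and the same counting errors. The difference between the 2 peaks was not tested.

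The DDX1 side of the window was thinly populated. Upstream of the MYCN promoter the control list had 2 peaks and the sgSNHG1 list 3, all with backgrounds between 2.05 and 2.54 times the genome-wide level. The intergenic peak 25.8 kb upstream had a fold enrichment of 6.57 from 40 fragments in control and 7.28 from 38 fragments in sgSNHG1. The peak at the start of MYCNUT, a lncRNA gene 20.2 kb upstream of MYCN, had 5.63 from 30 fragments in control and 4.93 from 22 in sgSNHG1. The counting error of its log2 ratio of -0.19 was 0.40, so no difference was detectable at this depth. DDX1 lies outside the window, 349 kb upstream of MYCN. Its promoter peak was enriched 10.2-fold in control and 7.44-fold in sgSNHG1 (log2 ratio -0.46, counting error 0.24), with a background of 4.02 and 3.95 times the genome-wide level. NBAS, further upstream, and CYRIA, on the far side, were also outside the raised stretch, with promoter backgrounds of 2.31 and 3.502 times in control and 2.16 and 2.68 times in sgSNHG1. Other genes of the arm had ordinary backgrounds too. VSNL1, which encodes a neuronal calcium sensor, had fold enrichments of 6.82 and 7.35 (log2 ratio 0.11, counting error 0.33), and ALK, a receptor kinase often mutated in neuroblastoma, had 7.17 and 5.89 (-0.28, error 0.31). ODC1, which encodes the first enzyme of polyamine synthesis and is a known MYC target, had 9.85 and 5.92 (-0.73, error 0.27). Among the peaks of both lists the step in background therefore lay between chr2:15920461 and chr2:15939491, and DDX1 was not in the raised stretch.

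MYCN was the only protein-coding gene among the 16 annotated genes that overlap the window, and 11 were lncRNA genes. A promoter, here 3 kb on either side of an annotated start, was reached by 23 of the 157 control peaks and 33 of the 205 sgSNHG1 peaks. Another 8 and 10 peaks lay over other exons, 74 and 92 in introns, and 52 and 70 between genes. The same shares over the whole lists were not computed, so these counts describe the window alone. GACAT3, a lncRNA gene that begins 73.4 kb after MYCN, had 26 control peaks and 32 sgSNHG1 peaks in its body. Its highest promoter peaks were weak, with fold enrichments of 1.45 in control and 1.82 in sgSNHG1, and they did not overlap each other. The strongest promoters after MYCN belonged to lncRNA genes known by identifier alone. The start of ENSG00000226041 lay in the peak at 261.4 kb, with fold enrichments of 6.38 and 6.22. The start of ENSG00000228876 lay in the peak at 283.2 kb, with 4.26 and 3.64, and that of ENSG00000231266 lay within 3 kb of the peak at 286.6 kb, with 3.98 and 3.65. ENSG00000228876 had 31 control peaks and 42 sgSNHG1 peaks in its body. The peak at 261.4 kb is also within 3 kb of ENSG00000251704. The best promoter peak of ENSG00000232444 went from 2.53 to 1.84, and that of ENSG00000271315 from 1.93 to 2.05. At RN7SL104P, a pseudogene, the values were 1.39 and 1.49, at ENSG00000226764 1.38 and 1.64, at ENSG00000236989 1.47 in both lists from peaks that did not overlap, at ENSG00000285354 1.67 and 1.63, and at ENSG00000224400 1.65 and 1.79. No peak lay within 3 kb of ENSG00000238371. Away from the few strong sites, these promoter peaks thus lay between 1.38 and 2.53.

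The highest peaks of the stretch lay far from MYCN. The highest control peak, at chr2:16093589-16095360 in an intron of ENSG00000236989, was enriched 7.47-fold in control and 6.38-fold in sgSNHG1, from 4619 and 2321 fragments. The peak at chr2:16201358-16202821 had the deepest pileup, 6231 fragments in control and 3777 in sgSNHG1. The intergenic peak at chr2:15984207-15985198 was enriched 6.20-fold in control and 4.75-fold in sgSNHG1. The peak at chr2:16392302-16393300, over an exon of ENSG00000224400, had 5.96 in control and 5.22 in sgSNHG1. By this measure all 4 stood above the MYCN promoter in both lists.

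The 2 lists marked largely the same places in the window. An sgSNHG1 peak overlapped 148 of the 157 control peaks (94.3%), against 66.7% of the whole control list. A control peak overlapped 159 of the 205 sgSNHG1 peaks (77.6%), against 78.2% of the whole sgSNHG1 list. Peaks cover far more of the raised stretch than of its flanks, so an overlap of 1 bp is more easily met there and these shares are not on the same footing. When at least 50% of both peaks had to overlap, 76.4% of the control peaks and 58.5% of the sgSNHG1 peaks of the window had a partner, against 48.2% and 53.8% of the whole lists. When the summit of the other list had to lie inside the peak, the window shares were 87.3% and 68.8%, against 64.0% and 67.6%. The sgSNHG1 list held 1.31 times as many peaks as the control list in the window, and 0.896 times as many over the genome. It covered 1.07 times as many bases in the window, and 0.670 times as many over the genome.

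Peaks found in 1 list alone were weak. The 9 control peaks without a partner had fold enrichments between 1.26 and 1.41, and the highest of them lay at chr2:16077630-16077845. Of the 46 sgSNHG1 peaks without a partner, the highest was upstream of MYCN, at chr2:15919875-15920006 near the start of MYCNUT, with a fold enrichment of 3.86 from 18 fragments. The other 45 had raised background and fold enrichments between 1.26 and 1.82, with the highest at chr2:16013113-16013381 in the GACAT3 promoter. Wide peaks were also cut differently. Of the control peaks, 14 of 157 (8.92%) spanned several sgSNHG1 peaks, against 3.46% of the whole control list, whereas 4 of 205 sgSNHG1 peaks spanned several control peaks, against 0.23% of the whole sgSNHG1 list. Where peaks cover more of the DNA, as in the raised stretch, spanning several is more easily met, so these shares are not on the same footing. Over the summit nearest to the control summit, 8 of the 14 split peaks had a lower fold enrichment in sgSNHG1. Among pairs matched by overlap, 39 of the 144 window pairs (27.1%) and 55.6% of all pairs of the series were lower. The split peaks were matched by summit instead, so these shares are not on the same footing, and their difference was not tested.

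Over the 144 pairs fold enrichment was mostly slightly higher in sgSNHG1, although scaled pileup was mostly slightly lower, and at 10 of the 11 strong pairs, those with a mean fold enrichment of 3 or more, both were lower. The median log2 ratio of fold enrichment was 0.07 (quartiles -0.01 and 0.17), against -0.05 over all pairs of the series. Fold enrichment was higher in sgSNHG1 in 105 of the 144 pairs (72.9%), against 44.4% of all pairs. It was higher by more than 2 counting errors in 35 pairs (24.3%), against 1.13% of all pairs, and lower by more than 2 in 14 pairs (9.72%), against 1.55%. The deep coverage made these errors small, with a median of 0.10 in the window and 0.40 over all pairs, so the shares past 2 errors are not on the same footing. A fall of at least 0.5 on the log2 scale was seen in 1 of the 144 pairs, against 9.06% of all pairs, and a rise of that size in none, against 5.37% of all pairs.

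**Figure D3:**
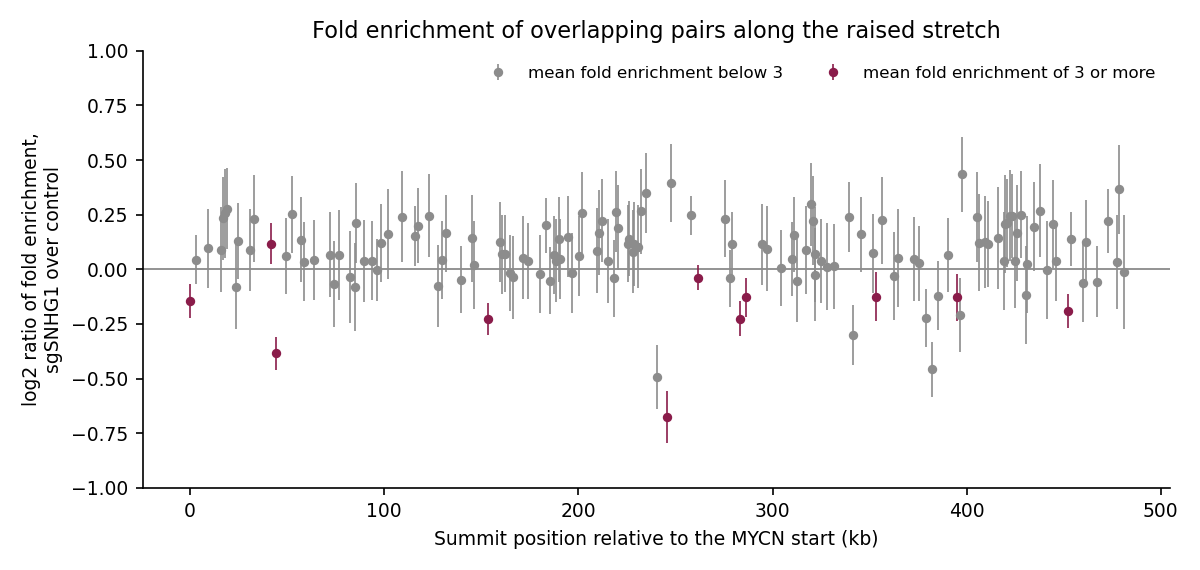
The sgSNHG1 over control log2 ratio of fold enrichment (vertical axis) of the 142 pairs with raised background against the distance of the control summit from the MYCN start in kb (horizontal axis). Bars are 95% counting intervals, and dark red points are the 11 pairs with a geometric mean fold enrichment of 3 or more. These lie below 0 except the pair at 41.9 kb, among weaker pairs that lie mostly above 0 all along the stretch.

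The 142 pairs with raised background were grouped by the geometric mean of their fold enrichments, with limits set after the values were seen. A pair needs a called peak in both lists, and the median pileup of raised peaks was 526 fragments in control and 399 in sgSNHG1. At lower depth a weak peak needs a higher fold enrichment to be called, so weak and strong pairs are not on the same footing. The part of depth in the ratios of the weak pairs was not tested. In the 66 pairs with a mean below 1.5 the median log2 ratio was 0.07, and 53 were higher in sgSNHG1. In the 52 pairs from 1.5 to 2 it was 0.13, and 42 were higher. In the 13 pairs from 2 to 3 it was 0.14, and 8 were higher. In the 11 pairs at 3 or more it was -0.14, and 10 were lower, 9 of them by more than 2 counting errors. Outside the window, the 31480 pairs with a mean of 3 or more had a median of -0.05, and 55.8% were lower, 1.52% by more than 2 counting errors. Their counting errors were larger, with a median of 0.40 against 0.04 in the 11 pairs. Among them, the 3303 pairs with a mean from 10 to 15 had a median of -0.01 and the 192 pairs above that had 0.10.

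The 11 strong pairs can be read one by one. The intergenic pair at 245.6 kb, chr2:16185722-16186574, had the largest fall, from 4.24 in control to 2.65 in sgSNHG1 (log2 ratio -0.68, counting error 0.06). The pair at 44.1 kb followed, with -0.38 and an error of 0.04. The pairs at 153.7 and 283.2 kb had -0.23 each, and the pair at 452.3 kb had -0.19, all with an error of 0.04. For the MYCN promoter it was -0.14, with the same error. Smaller falls of -0.13 were seen at 286.6, 353.1 and 394.9 kb, with errors of 0.05, 0.06 and 0.05. The pair at 261.4 kb had a log2 ratio of -0.04 by fold enrichment (error 0.03), within 2 counting errors of no change, but -0.36 by scaled pileup. The pair at 41.9 kb was the exception, with fold enrichments of 3.13 in control and 3.39 in sgSNHG1 (log2 ratio 0.12, error 0.05). The pair at 44.1 kb is its neighbour, so adjacent peaks had opposite signs on this scale.

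**Figure D4:**
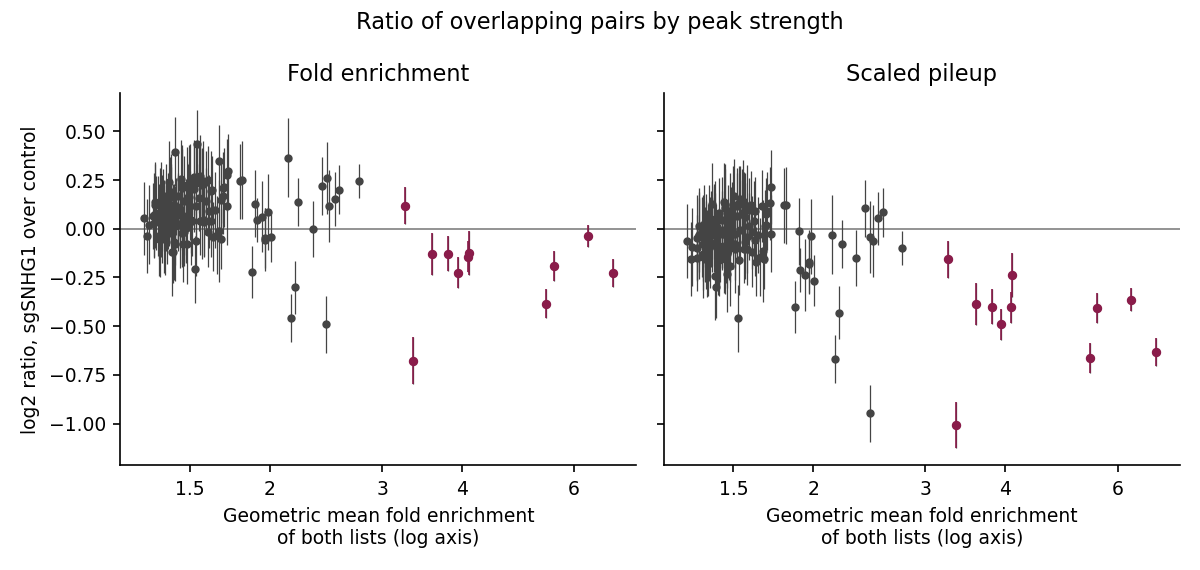
The log2 ratio, sgSNHG1 over control (vertical axis), of fold enrichment (left) and of scaled pileup (right) for the 142 pairs with raised background, against the geometric mean fold enrichment of both lists (horizontal log axis). Bars are 95% counting intervals, and the 11 pairs at 3 or more are dark red. On the left 10 of these 11 pairs lie below 0, and on the right all 11 do.

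The direction of the weak pairs depended on the scale, and among the strong pairs that of the pair at 41.9 kb alone did. By scaled pileup all 11 strong pairs were lower in sgSNHG1, with a median log2 ratio of -0.40 and -0.16 at 41.9 kb. Of the 66 weakest pairs, 50 were lower by scaled pileup while 53 were higher by fold enrichment, and of the next 52 pairs 26 were lower by scaled pileup. Over the window 98 of 144 pairs (68.1%) were lower by scaled pileup, against 50.9% of all pairs, with a median of -0.04. Scaled to the genome-wide level, the local background was lower in sgSNHG1 in 142 of 144 pairs (98.6%), against 58.4% of all pairs. Its median log2 ratio was -0.13, against -0.01 over all pairs. Raised peaks lay close together, with median gaps of 1962 bp in control and 1213 bp in sgSNHG1, so neighbouring backgrounds can share fragments. Every background of a list was also divided by the same genome-wide level. The 144 pairs are therefore not separate measurements of background, and these shares are not on the same footing. Copy number and accessibility cannot be told apart in these values.

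At some of the other large ratios the summits lay apart or the background differed. The pair at 240.7 kb (chr2:16179692-16181840) had a log2 ratio of -0.49, but its summits were 836 bp apart because the control peak spanned 2 sgSNHG1 peaks. Against the sgSNHG1 part whose summit lay 3 bp away, the fold enrichments were 2.91 and 2.55 and the log2 ratio was -0.19 with an error of 0.07. The pair at 382.2 kb fell from 2.53 to 1.84 (log2 ratio -0.46, error 0.06) with summits 94 bp apart, and the pair at 341.6 kb from 2.43 to 1.98 (-0.30, error 0.07). Among the rises, the pair starting at chr2:16337845 went from 1.32 to 1.79 (0.43, error 0.09) and the pair at 247.7 kb, which neighbours the largest fall, from 1.24 to 1.63 (0.40, error 0.09). The local backgrounds of these 2 pairs were lower in sgSNHG1 by more than the window's median, with log2 ratios of -0.29 and -0.31. Their scaled pileups had log2 ratios of 0.15 and 0.08, smaller than their rises in fold enrichment. The pair at 478.5 kb rose from 1.88 to 2.43, but its summits were 1379 bp apart, and against the nearest sgSNHG1 summit the log2 ratio was 0.11 with an error of 0.10. The pairs at 234.9 and 319.7 kb had ratios of 0.35 and 0.30, with errors of 0.09 and 0.10.

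**Figure D5:**
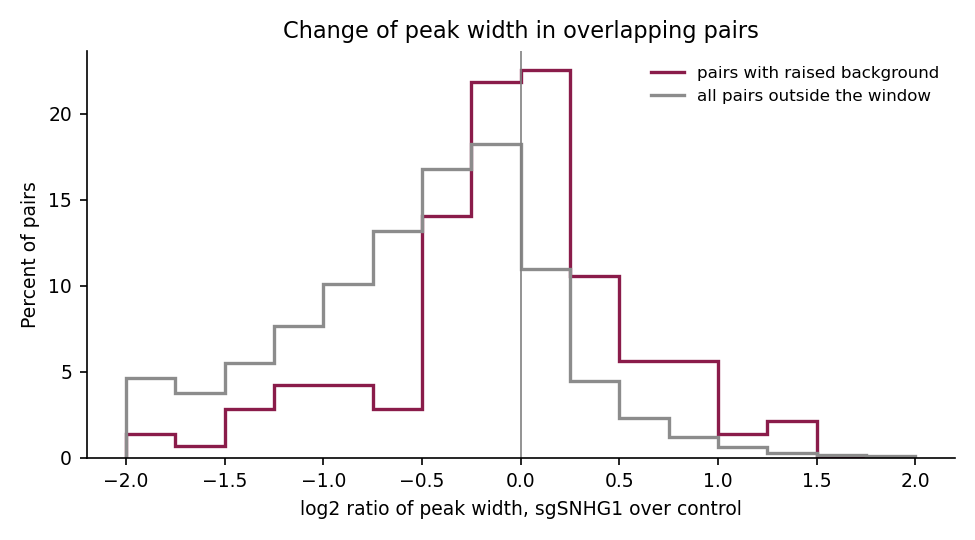
Share of overlapping pairs in percent (vertical axis) by the log2 ratio of peak width, sgSNHG1 over control (horizontal axis, bins of 0.25, with values beyond the axis in the end bins), for the 142 pairs with raised background (dark red) and all pairs outside the window (grey). The raised pairs are spread evenly around 0, and the others are shifted to the left.

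Peak widths over the window pairs were balanced around no change. Window peaks had a median width of 416 bp in the control list and 351 bp in sgSNHG1, but over pairs the median log2 ratio of width was -0.01 (quartiles -0.32 and 0.27), against -0.42 over all pairs. Narrower sgSNHG1 peaks made up 75 of the 144 pairs (52.1%), against 79.8% of all pairs. The smallest peak of the whole control list was 119 bp wide, that of the sgSNHG1 list was 92 bp wide, and the genome-wide background was lower in sgSNHG1. The part of fragment length and depth in the width difference was not tested.

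The sequence around the summits was poorer in CpG than that of the median peak of each list. Within 100 bp of the summit, the raised peaks had a median GC content of 50.2% in both lists, against 55.7% over each whole list, and a median CpG ratio, observed over expected, of 0.175 in control and 0.198 in sgSNHG1, against 0.334 and 0.347. The letters CANNTG, searched on both strands, were found at 79.4% of the raised control peaks and 79.7% of the raised sgSNHG1 peaks, against 66.9% and 67.4%. At raised peaks with a fold enrichment of 2 or more the share was 80.0% in each list. Below 2 it was 79.2% in control and 79.7% in sgSNHG1, so it hardly differed with peak strength. The general form CANNTG includes CATCTG, found at 21.9% and 21.3%, against 22.9% and 23.6%, and CAGCTG, found at 16.8% and 18.3%, against 19.0% and 20.8%. It also includes CACGTG, which was present at 2 of the 155 raised control peaks and 3 of the 202 raised sgSNHG1 peaks, against 4.80% and 4.83%. The AP-1 letters TGACTCA or TGAGTCA were found at 4.52% and 3.47%, against 4.70% and 5.64%, and GATAA at 26.5% and 24.8%, against 23.0% in each list. The core letters of the CTCF motif were at none of the raised peaks, against 1.35% and 1.29% of the whole lists. At the 25 raised control peaks with a fold enrichment of 2 or more, GATAA was found at 12.0%, and at the 25 such sgSNHG1 peaks at 28.0%. In 20 pairs both peaks were in these groups, so the 2 shares come from largely the same places and from few sequences, and their difference was not tested.

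Promoter peaks were also listed at markers of adrenergic neuroblastoma and of other cell types. The share of all genes with such a peak was not computed, so the counts do not establish the cell type. A peak lay within 3 kb of the start of 5 of 6 adrenergic marker genes (HAND2, GATA3, ISL1, TBX2 and DBH) in both lists. At GATA3 the highest such peaks of the 2 lists did not overlap each other. No such peak lay at TH, which encodes the first enzyme of catecholamine synthesis. Of 4 genes of other cell types, PTPRC of blood cells and PECAM1 of endothelium had no such peak, while EPCAM, an epithelial gene, had fold enrichments of 8.86 and 11.3 and COL1A1, a collagen gene, had 3.95 and 4.54. At SNHG1, the targeted gene, a peak over the promoter was enriched 5.71-fold in control and 6.04-fold in sgSNHG1, and peak calls do not show whether the guide-targeted DNA was deleted.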

How the data were processed

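ATAC-seq was performed on 4 samples of SK-N-BE(2)C cells, 2 per group. According to the submitters' processing notes and the study's methods, the authors trimmed reads with cutadapt, aligned them to GRCh38 with BWA, marked duplicates with Picard through GATK, removed improper, multi-mapped, mitochondrial, blacklisted and duplicate reads, shifted fragments with deepTools, combined the replicates, called peaks with MACS2 on paired-end fragments without a control library, and annotated them with ChIPseeker. Versions were not given in the sources used here. Each deposited list gives per peak a score, the fold enrichment at the summit (a ratio to the local background), the -log10 p-value, the -log10 q-value and the summit offset. The scores are the deposited -log10 q values times 10, capped, and were not used further. Total fragments per sample are not in the lists used here, so depth is unknown beyond the pileups.

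Peaks lying wholly in the window were taken from both lists. The whole pileup and local background that give each peak's deposited fold enrichment and p-value were solved with Python 3.11.15, numpy 2.4.6 and scipy 1.17.1, to a tolerance of 0.001 in -log10 p, and the solver was tested on simulated data. All peaks were solved except the control peak at the MYCN promoter, whose nearest whole pileup missed the tolerance slightly and was kept. Pairs are peaks of both lists that are each other's largest overlap, of at least 1 bp. Genes are from GENCODE 44, sequences from the GRCh38 reference and the RefSeq promoter table, and motifs were searched within 100 bp of each summit. With 1 combined list per group no test between groups was possible, and ratios carry counting errors alone. Named were all genes overlapping the window with chosen 2p neighbours and marker genes, the 5 highest, 3 widest and 5 highest unpaired peaks of each list, and the 5 lowest and 5 highest ratios. Those not printed are counted in the ranges, except a marker gene that is not reported here. The strong pairs were listed after their values were seen. The members and lists were chosen with earlier results of these data known. Alternatives were a stricter q-value, other overlap rules, other scalings, and a shorter promoter reach.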

Additional observations from a re-analysis of the deposited data

How the results depend on the processing

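No paired analysis was possible because the authors combined the replicates of each group into 1 list, and leaving out each replicate could not be run for the same reason. With -log10 q of at least 10, 89 control peaks and 104 sgSNHG1 peaks remained in the window. The share of control peaks overlapped by an sgSNHG1 peak was 76.4% when at least 50% of both peaks had to overlap, 87.3% when the other summit had to lie inside the peak, and 85.4% with the stricter q-value. The share of sgSNHG1 peaks overlapped by a control peak was 58.5% and 68.8% under the first 2 of these rules. The median log2 ratio of width was 0.053 when the smallest width of each list was subtracted, against -0.014, so its sign is not settled. At the MYCN promoter the log2 ratio was -0.40 by scaled pileup, against -0.14 by fold enrichment. The median ratios of fold enrichment and of scaled pileup kept their sign under every alternative run for them. The limits are 1 list per group, clones that cannot be told apart from guides, and fold enrichments whose local background includes the peaks themselves. The cause of these shifts was not tested.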
